A study of Mus musculus with 4 samples.

Results

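The genes described here were 38 genes of B cells and plasma cells other than the immunoglobulin genes, named by symbol from Cd79a to Syk. Of these 38 genes, 37 were found among the 22558 genes of the deposited tables, and 33 of them were among the 11711 genes with enough counts to be tested. Faim3 was not listed under that symbol, and values for Fcmr, the current symbol of that gene, are given with the other mature B cell genes. Cr2, Fcer2a, Tnfrsf17 and Vpreb3 lay under the limit on low counts, a mean normalized count of 1 and a sum of 10 over the 4 libraries. A normalized count is the count as the authors scaled it by the upper quartile of each library.

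B cells sense antigen through a surface immunoglobulin whose signal passes over the chains CD79A and CD79B to the kinases SYK, BLK and BTK and to the adaptor BLNK, while the transcription factors EBF1 and PAX5 hold the B cell programme in place. A B cell that becomes a plasma cell gives up most of this surface machinery and turns to secretion, with the J chain and the chaperone MZB1 serving immunoglobulin assembly. In the lung, plasma cells secrete antibody to the airway surface, whereas group 2 innate lymphoid cells (ILC2s) carry no antigen receptor and respond to IL-33 with type 2 cytokines.

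The RNA came from activated lung ILC2s of 6-week-old mice, 2 libraries labelled WT (C57BL/6) and 2 labelled ICAM-1 KO (constitutive Icam1 mutants), all after 3 intranasal doses of 0.5 µg recombinant mouse IL-33, with lungs taken on day 4 and 4 mice pooled per library. Cells were sorted as positive for CD45, ST2 and CD127 and negative for a lineage mix. That mix held CD45R, the B220 form of CD45 found on most B cells, and T cell and myeloid antigens. Since each library is a pool, p-values here measure only the spread between these pools.

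Counts of Icam1, the targeted gene, were 2579 and 2630 in WT against 2812 and 3453 in the ICAM-1 KO-labelled libraries. With a log2 fold change of 0.33 (edgeR adjusted p = 0.0745), Icam1 RNA was not lower in the latter, which are therefore named by their label throughout. From flow cytometry on lung ILC2s, the paper reports that its ICAM-1 KO mice lack ICAM-1 protein, which RNA counts do not measure. Library totals ran from 24796148 to 28782471 counts. The sorted cells carried the ILC2 markers, with all 10 listed ILC2 genes above 0 in every library and a summed normalized count of 4953 and 5488 in WT against 4446 and 4656. Of these 10 genes, Klrg1 rose and Il5, Il2ra and Il13 fell, though Klrg1 (edgeR adjusted p = 0.114) and Il2ra (0.0786) did not pass without WT 2, nor Klrg1 without ICAM-1 KO 2 (0.0519).

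B cell and plasma cell genes were on the higher side in the ICAM-1 KO-labelled libraries. The edgeR adjusted p comes from the quasi-likelihood test of edgeR, adjusted by Benjamini and Hochberg over all genes tested, with 0.05 as the threshold, and fold changes are ICAM-1 KO-labelled libraries over WT. Of the 33 genes tested, 17 rose (51.5%, against 8.8% of all genes tested) and 0 fell (against 4.97%), and at an unadjusted p under 0.05 the counts were 21 and 0. With a change of at least 2-fold, 12 rose (36.4%, against 4.94%) and 0 fell (against 0.538%). The other 16 had log2 fold changes above 0 in this fit, though that of Cd72 was 0.00 with DESeq2, and those of Cd72, Bach2, Fcrla and Cd37 lay below 0 when 1 or another library was left out (Cd72 down to -0.17, Bach2 to -0.30, Fcrla to -0.03 and Cd37 to -0.01).

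The levels in single libraries showed the same side. In 27 of the 33 genes (81.8%) both ICAM-1 KO-labelled libraries lay above both WT libraries, which held for 28.3% of all genes tested. None lay below both, against 31.3% of all genes tested, and 6 overlapped. The median log2 fold change of the 33 genes was 0.90, from 0.01 for Cd72 to 1.91 for Derl3, beside 0.01 over all genes tested. Pax5 and Fcrl1 passed the limit on low counts only with the help of the ICAM-1 KO-labelled libraries, and neither was called. Both are kept in the 33 genes and in the median, and Fcrl1 is among the 27. In bulk RNA, fewer cells of a type and less RNA per cell cannot be told apart.

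The count of 17 fell to 10 when WT 1 was left out and to 11 when WT 2 was left out, and was 15 without ICAM-1 KO 1 and 16 without ICAM-1 KO 2. The count of 12 with a 2-fold change fell to 6 without WT 1 and to 8 without ICAM-1 KO 1, and was 10 without WT 2 and 12 without ICAM-1 KO 2. All 17 genes kept a log2 fold change above 0 with each library left out. Without a limit on low counts, 3 of 37 genes were called, Blnk, Cd55 and Syk. Calls over the whole table also fell in that fit, from 1612 of 11711 genes tested to 535 of 22158.

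**Figure D1:**
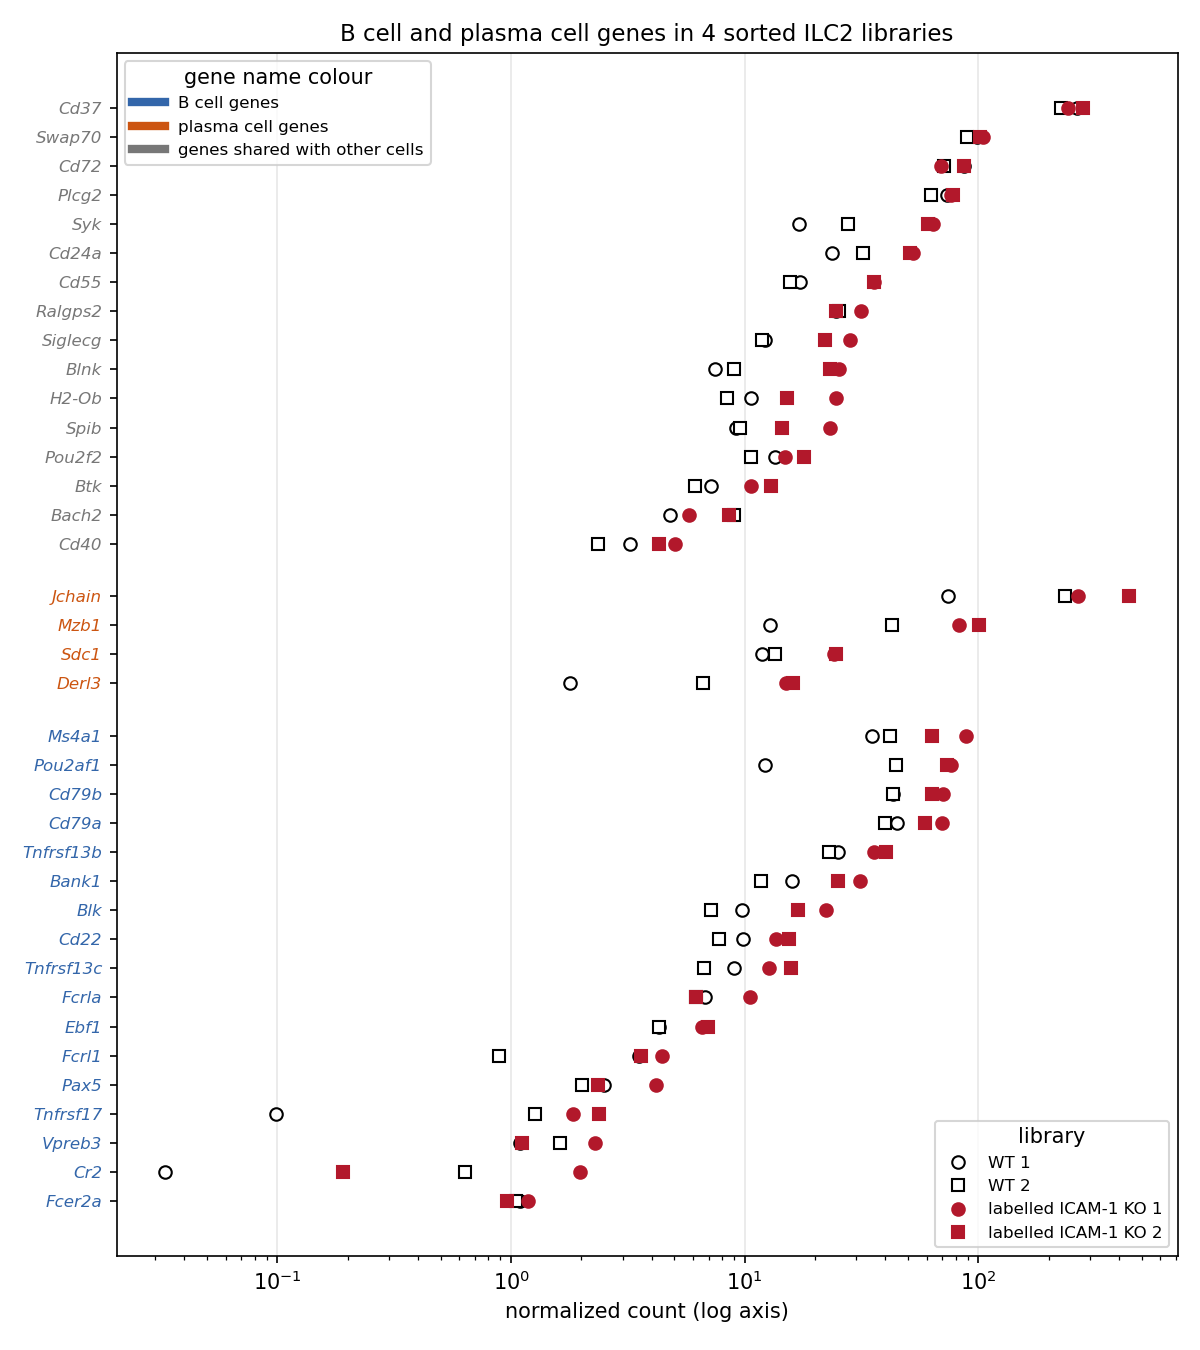
Normalized counts (log axis) of the 37 genes found, 1 row per gene, with open symbols for the WT libraries, filled symbols for the ICAM-1 KO-labelled libraries, and gene names coloured as B cell genes, plasma cell genes or genes shared with other cells. Filled symbols lie to the right of open ones for most genes, and WT 1 lies apart to the left for Jchain, Mzb1, Derl3 and Pou2af1.

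The chains and kinases of the B cell receptor formed the first group. Cd79a (chr7:24897381-24902197 of mm10, plus strand), whose product carries the receptor's signalling tail, had normalized counts of 44.8 and 39.7 in WT and 69.8 and 59.1 in the ICAM-1 KO-labelled libraries. It rose 1.55-fold (log2 fold change 0.63, SE 0.13, edgeR adjusted p = 0.0175). Cd79b, the partner chain, lay at 43.1 and 43.2 against 70.8 and 63.0 and rose 1.58-fold (edgeR adjusted p = 0.0103). The groups did not overlap for either chain, and the rises of both were alike in size. Per kilobase of exon, the mean normalized counts of Cd79a and Cd79b in WT were also alike, at 29.0 and 30.2, beside 130 for the ILC2 factor Gata3.

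Below the receptor stand the adaptor BLNK and the kinase that phosphorylates it. Blnk (chr19:40928927-40994535, minus strand), the adaptor that links SYK to calcium signalling and that macrophages also express, went from 7.46 and 9.03 in WT to 25.4 and 23.2. This was a 3.00-fold rise (log2 fold change 1.59, SE 0.22, edgeR adjusted p = 0.00301), with both groups tight and far apart. Syk (chr13:52583173-52648792, plus strand) encodes a tyrosine kinase that is also used by macrophages and other blood cells. It lay at 17.1 and 27.6 in WT and 63.6 and 61.0 in the other libraries, a log2 fold change of 1.50 (SE 0.20, edgeR adjusted p = 0.00274). WT 1 was the lowest library for Syk, and the groups stayed apart.

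Blk, a Src family kinase of B cells, rose from 9.77 and 7.19 to 22.3 and 16.9 (log2 fold change 1.24, SE 0.26, edgeR adjusted p = 0.0161). Bank1, a scaffold for receptor signalling in B cells, rose from 16.0 and 11.7 to 31.0 and 25.1 (log2 fold change 1.05, SE 0.22, edgeR adjusted p = 0.0156). In both genes WT 1 was the higher of the WT libraries and the groups stayed apart. Btk, the kinase that activates phospholipase C gamma 2, lay at 7.16 and 6.11 in WT and 10.6 and 12.9 in the others without passing the test (log2 fold change 0.86, edgeR adjusted p = 0.0672). Plcg2, the phospholipase itself, did not pass either, with 73.0 and 62.5 against 76.2 and 78.0 (log2 fold change 0.21, edgeR adjusted p = 0.258). Of this group, the calls of Cd79a (edgeR adjusted p = 0.088), Blk (0.0815) and Bank1 (0.0774) were lost without WT 2, and that of Cd79a also without ICAM-1 KO 1 (0.0663), while Cd79b, Blnk and Syk passed with each library left out.

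Genes of the B cell surface came next. Ms4a1 (chr19:11249675-11266241, minus strand) encodes CD20 and had 34.9 and 41.6 in WT against 88.4 and 63.1, a 2.01-fold rise (log2 fold change 1.01, SE 0.17, edgeR adjusted p = 0.00791). Here ICAM-1 KO 1 was the highest library, as it was for Blk, Bank1 and both receptor chains. Siglecg, an inhibitory sialic acid receptor of B cells that myeloid cells also carry, had 12.2 and 11.8 in WT and 28.1 and 22.0 in the others (log2 fold change 1.09, SE 0.21, edgeR adjusted p = 0.012).

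Cd22, the related inhibitory receptor that is more confined to B cells, lay at 9.86 and 7.73 against 13.6 and 15.4 and did not pass (log2 fold change 0.75, edgeR adjusted p = 0.076). Cd72, another inhibitory coreceptor, spanned the same range in both groups, with 87.0 and 71.6 in WT and 69.5 and 86.9 in the others (log2 fold change 0.01). Cd37, a tetraspanin of many leukocytes, had the highest level per kilobase of exon among the members in WT, with a mean of 69.7 in WT and 74.2 in the others, and its groups overlapped (log2 fold change 0.12). The calls of Ms4a1 (edgeR adjusted p = 0.0549 without WT 1) and Siglecg (0.0528 without WT 1, 0.0569 without WT 2) were lost by a small margin. Cd72 and Cd37 share exon bases with Tesk1 and Tead2 on the other strand, and the strand setting of the counting is not stated, so their counts can hold reads of those genes. The same holds for Pax5, Cd22, Bach2, Cd55 and Swap70, which also share exon bases with a gene on the other strand. Pou2f2 and Mzb1 share exon bases with Mir6537 and SPATA24 on the same strand, where no strand setting separates the reads.

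Cd55 and Cd24a are surface proteins that many cells carry. Cd55 (chr1:130439027-130462744, minus strand), which protects cells from complement, lay at 17.2 and 15.7 in WT and at 35.9 and 35.7 in the ICAM-1 KO-labelled libraries. Both pairs were tight, and the rise was 2.23-fold (log2 fold change 1.15, SE 0.16, edgeR adjusted p = 0.00346). Cd24a, which encodes a glycosylated surface protein of immature B cells and epithelia, rose from 23.5 and 32.1 to 52.4 and 51.0 (log2 fold change 0.92, SE 0.17, edgeR adjusted p = 0.00964). H2-Ob, a chain of the DO molecule that tunes peptide loading in B cells, rose from 10.7 and 8.39 to 24.6 and 15.2 (log2 fold change 1.09, SE 0.28, edgeR adjusted p = 0.0369). Its spread was wide within the ICAM-1 KO-labelled libraries, and the call was lost without WT 1 (edgeR adjusted p = 0.083), without WT 2 (0.154) and without ICAM-1 KO 1 (0.2).

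Fc receptor-like genes and complement receptors of B cells were low. Fcrla, an intracellular Fc receptor-like protein, lay at 6.74 and 6.21 in WT and 10.5 and 6.18 in the others, with overlapping groups. Fcrl1, an activating receptor-like protein, lay at 3.53 and 0.887 against 4.44 and 3.60. Neither passed the test, with log2 fold changes of 0.38 and 0.91, and that of Fcrl1 was 2.24 without WT 1 and 0.21 without WT 2. Cr2, complement receptor CD21, had 0 and 19 counts in WT and 56 and 5 in the others, and Fcer2a, the low-affinity IgE receptor CD23, had 29 to 33 counts in all 4 libraries. Both mark mature follicular B cells and neither was tested. The count of 0 for Cr2 in WT 1 allows up to 3 counts, and this limit covers counting error only, since the reads carry no molecular identifiers.

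The TNF receptor family members that bind the B cell survival factors BAFF and APRIL were all on the higher side. Tnfrsf13b (chr11:61126755-61149372, plus strand) encodes TACI and rose from 25.1 and 22.9 to 35.6 and 40.2 (log2 fold change 0.69, SE 0.16, edgeR adjusted p = 0.0229). Tnfrsf13c, the BAFF receptor, lay at 9.01 and 6.68 against 12.7 and 15.8, just outside the threshold (log2 fold change 0.90, SE 0.27, edgeR adjusted p = 0.057). Counts of Tnfrsf17, the plasma cell receptor BCMA, were 2 and 39 in WT and 52 and 74 in the others, and it was not tested. WT 1 stood apart for this receptor only, since for TACI and the BAFF receptor it was the higher of the WT libraries. Cd40, the receptor for T cell help, lay at 3.24 and 2.34 against 5.03 and 4.30 and did not pass (log2 fold change 0.78, edgeR adjusted p = 0.209). The call of Tnfrsf13b was lost without WT 1 (edgeR adjusted p = 0.0646), without WT 2 (0.0956) and without ICAM-1 KO 2 (0.101).

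Among transcription factors of the lineage, the master regulators were low and were not called. Pax5 lay at 2.51 and 2.00 in WT and 4.16 and 2.36 in the others (log2 fold change 0.55, SE 0.46, edgeR adjusted p = 0.461), and the groups overlapped. Ebf1, also expressed in stromal cells, lay at 4.29 and 4.31 against 6.59 and 6.95, with little spread but few counts (log2 fold change 0.69, SE 0.31, edgeR adjusted p = 0.176). Spib, an Ets factor of B cells and plasmacytoid dendritic cells, rose from 9.15 and 9.53 to 23.1 and 14.4 (log2 fold change 1.03, SE 0.27, edgeR adjusted p = 0.0393). The spread of Spib lay in the ICAM-1 KO-labelled libraries, and its call was lost without WT 1 (edgeR adjusted p = 0.133), without WT 2 (0.121) and without ICAM-1 KO 1 (0.239).

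The factors that act at octamer sites came next. Pou2af1 (chr9:51213708-51240080, plus strand), the coactivator OCA-B that B cells and plasma cells use at octamer sites, had 12.2 and 44.3 in WT and 76.2 and 73.0 in the ICAM-1 KO-labelled libraries. It was called near the threshold (log2 fold change 1.42, SE 0.40, edgeR adjusted p = 0.0488), and its log2 fold change was 0.78 without WT 1 and 2.64 without WT 2. The call was lost with DESeq2 (adjusted p = 0.237), the older form of edgeR (0.0863), filterByExpr (0.0754) and no limit on low counts (0.176). Pou2f2, the octamer-binding factor OCT2, lay at 13.5 and 10.6 against 14.8 and 17.9 and did not pass (log2 fold change 0.47, edgeR adjusted p = 0.213). Bach2, which restrains plasma cell differentiation, had overlapping groups, with 4.79 and 8.99 in WT and 5.76 and 8.55 in the others (log2 fold change 0.08).

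Sites for these factors were looked up in the RefSeq promoters of GRCm38.p6, which run from 250 bases before to 50 after each gene start and were present for 31 of the 38 genes. The octamer ATGCAAAT, on either strand, was in 2 of the 31 (Blnk and Vpreb3) and in 1.97% of all 27025 genes with a promoter. The core CCCNNGGG of EBF1 was in 5 (Bank1, Cd22, Cd55, Sdc1 and Spib) and in 15.4% of all genes. The core GAGGAAGT of PU.1, an Ets factor whose sites SPIB shares, was in 3 (Cd37, Cd72 and Fcrl1) and in 3.69% of all genes. No run of letters can match more than 1 of these motifs in full, Spib held 2 overlapping EBF1 matches and Sdc1 held 3, and a match describes letters and is not a bound site.

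To show what these matches look like, windows of up to 30 bases are printed 5′ to 3′ along each gene's own strand with the motif in capitals, for both octamer matches, 3 EBF1 matches of genes that rose, and the 3 PU.1 matches, whose genes did not pass the test.
Blnk, octamer, chr19:40994333-40994362, minus strand: tactggaagggATTTGCATgcccaataagg
Vpreb3, octamer, chr10:75948244-75948273, plus strand: tcagtgggctgATTTGCATgctctattgtg
Bank1, EBF1 core, chr3:136326069-136326098, minus strand: tgcggcctgagCCCCTGGGctgcatttccg
Cd55, EBF1 core, chr1:130462831-130462860, minus strand: gacaactaggtCCCCTGGGtgaagctagag
Spib, EBF1 core, chr7:44532118-44532147, minus strand: cccatggcccgCCCCTGGGggtaggtaggc
Fcrl1, PU.1 core, chr3:87376361-87376386, plus strand: ttccgaccacgACTTCCTCaaacctc
Cd72, PU.1 core, chr4:43454657-43454686, minus strand: gccaaagacctACTTCCTCttttatgactt
Cd37, PU.1 core, chr7:45238846-45238875, minus strand: acccccccggaACTTCCTCtttctctgccg

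Blnk carried the octamer and rose 3.00-fold, whereas Vpreb3, a pre-B cell receptor component with the same octamer, had 32, 50, 65 and 34 counts and was not tested. In both windows the octamer reads as its reverse complement along the gene, 130 bases before the RefSeq start in Blnk and 45 in Vpreb3. In the annotation used here the Vpreb3 window lies in an intron and those of Blnk and Cd37 touch an exon, while the other windows lie before the gene. Of the 5 genes with the EBF1 core, Bank1, Cd55, Sdc1 and Spib rose and Cd22 did not pass the test, while 17 of all 33 genes tested rose. The core was in 5 of 31 genes beside 15.4% of all genes, and a link between it and the rise was not tested.

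**Figure D2:**
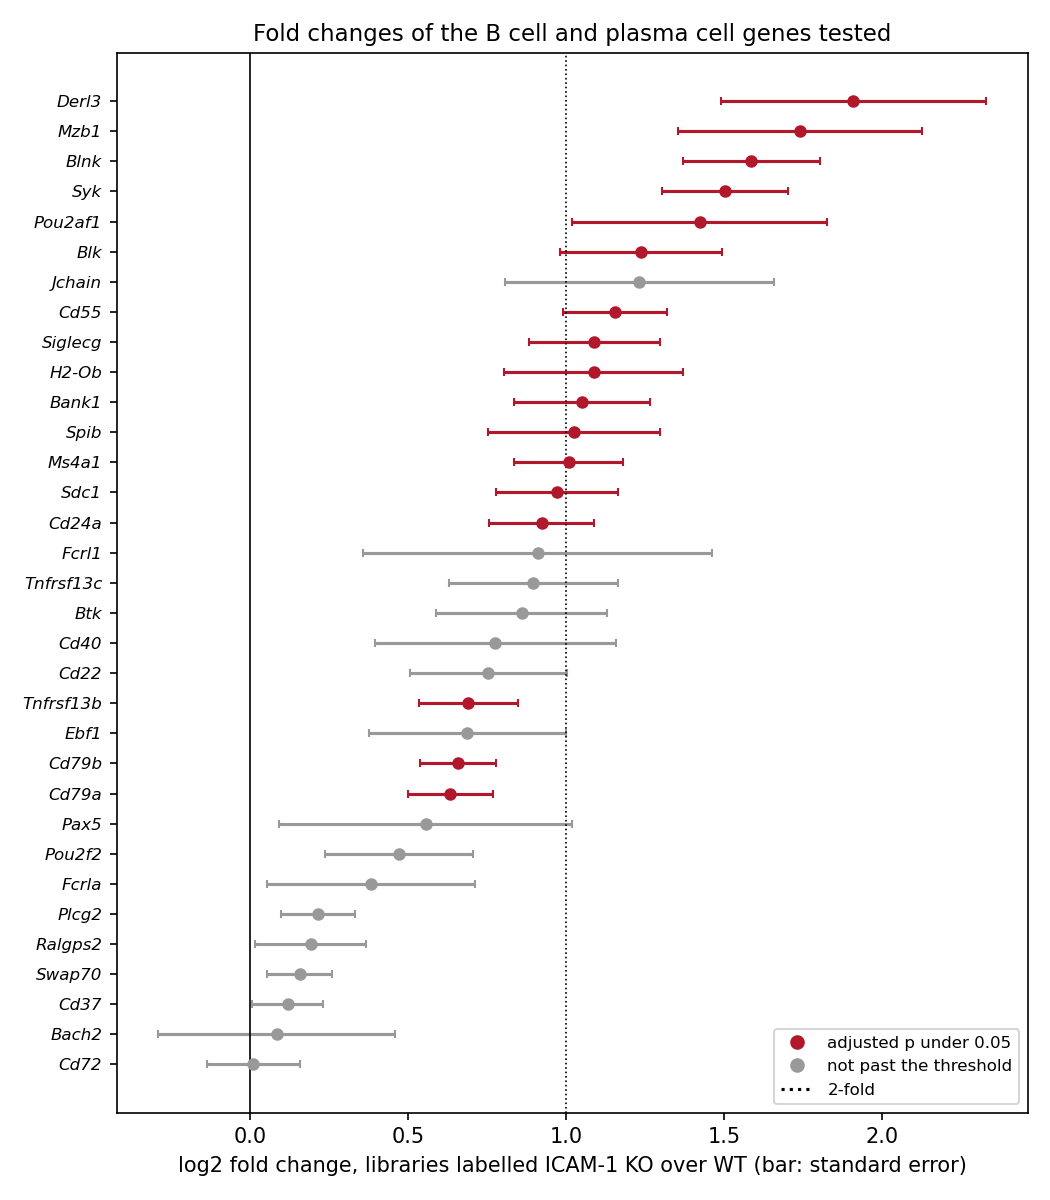
Log2 fold change (ICAM-1 KO-labelled libraries over WT) of the 33 genes tested, points in red where the edgeR adjusted p was under 0.05 and grey otherwise, with bars for the standard error and a dotted line at 2-fold. All points lie above 0 in this fit, from Cd72 at 0.01, which was 0.00 with DESeq2, to Derl3 at 1.91.

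Among the plasma cell genes, Jchain, Mzb1 and Derl3 differed widely between the WT libraries, and their fold changes depended on which WT library was kept. Jchain (chr5:88519809-88527891, minus strand), the chain that joins IgA and IgM into polymers, lay at 74.2 and 234 in WT and 266 and 442 in the ICAM-1 KO-labelled libraries. Its log2 fold change of 1.23 (SE 0.43) did not pass the test (edgeR adjusted p = 0.0877), and it was 0.63 without WT 1 (edgeR adjusted p = 0.2) and 2.29 without WT 2 (0.00951). Per kilobase of exon, its mean normalized count was 61.1 in WT and 141 in the others.

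Mzb1, a chaperone of the endoplasmic reticulum for IgM assembly, went from 12.9 and 42.7 to 82.2 and 100.4. It rose 3.34-fold (log2 fold change 1.74, SE 0.39, edgeR adjusted p = 0.0207), and its log2 fold change was 1.13 without WT 1 and 2.86 without WT 2. The call of Mzb1 was lost with DESeq2 (adjusted p = 0.11) and with no limit on low counts (0.112). Derl3 (chr10:75893413-75895941, plus strand), which helps to clear misfolded secretory proteins, went from 1.78 and 6.62 to 15.0 and 16.1 (log2 fold change 1.91, SE 0.42, edgeR adjusted p = 0.02). Without WT 1 its log2 fold change was 1.26 (edgeR adjusted p = 0.0543), and without WT 2 it was 3.17, and the older form of edgeR (adjusted p = 0.0561) and no limit on low counts (0.0926) also ended the call. In Jchain, Mzb1 and Derl3, WT 2 lay between WT 1 and the ICAM-1 KO-labelled libraries.

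Sdc1, the plasma cell surface proteoglycan CD138 that epithelia also make, behaved otherwise. It lay at 11.8 and 13.5 in WT and 24.0 and 24.6 in the others, with tight pairs (log2 fold change 0.97, SE 0.19, edgeR adjusted p = 0.014). Its call was lost without WT 1 (edgeR adjusted p = 0.0666).

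Among the genes tested, WT 1 and WT 2 lay farthest apart for Fcrl1, Pou2af1 and 3 of the 4 plasma cell genes. The log2 ratio of WT 2 over WT 1 was 1.66 for Jchain, 1.73 for Mzb1, 1.89 for Derl3 and 1.86 for Pou2af1, but 0.19 for Sdc1. Over the 13 B cell genes tested its median was -0.17, with Ms4a1 at 0.25 and Bank1 at -0.45, and Fcrl1 was the lowest at -1.99. The ratio of ICAM-1 KO 2 over ICAM-1 KO 1 was 0.73 for Jchain, 0.29 for Mzb1 and 0.10 for Derl3. WT 1 was thus low for plasma cell genes and at or above WT 2 for most B cell genes.

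**Figure D3:**
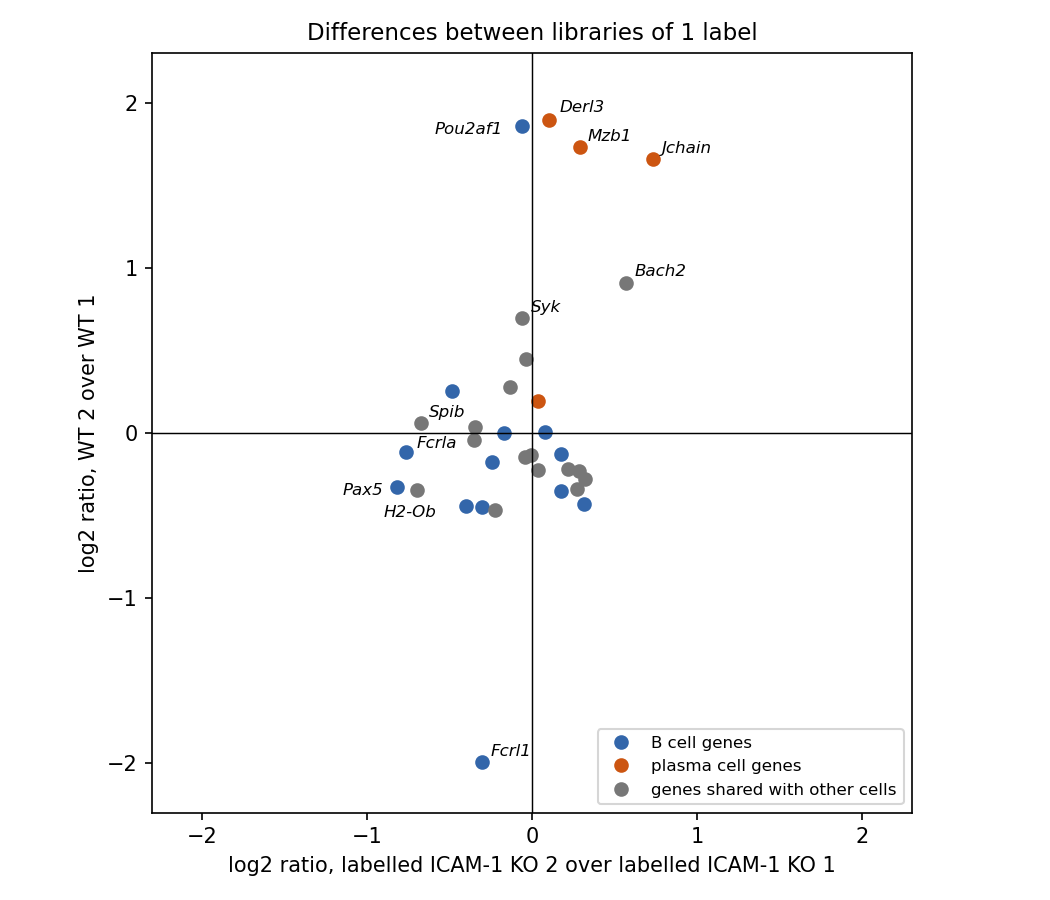
Log2 ratio of WT 2 over WT 1 (vertical axis) against the log2 ratio of ICAM-1 KO 2 over ICAM-1 KO 1 (horizontal axis) for the 33 genes tested, 1 point per gene, coloured by gene list. Derl3, Pou2af1, Mzb1 and Jchain stand between 1.66 and 1.89 on the vertical axis, and Fcrl1 at -1.99.

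Immunoglobulin genes encode the products that these plasma cell genes serve. Of 91 tested, 40 rose and 5 fell, all of these by at least 2-fold, and the groups of 35 overlapped. These 91 come from 202 immunoglobulin genes, of which 53 and 44 had 0 counts in WT 1 and WT 2. In ICAM-1 KO 1 and ICAM-1 KO 2, 14 and 22 of the 202 had 0 counts. Some of the 91 can thus have passed the limit on low counts only through the ICAM-1 KO-labelled libraries, which limits the share that rose. The summed normalized count of 202 immunoglobulin genes was 2142 and 5454 in WT and 9237 and 14140 in the ICAM-1 KO-labelled libraries. Ighm, the heavy chain of IgM, had 26486, 61416, 106047 and 165718 counts in the same order and rose (log2 fold change 1.70, edgeR adjusted p = 0.0109). Its log2 fold change was 1.23 without WT 1 and 2.39 without WT 2, and it did not pass with no limit on low counts (adjusted p = 0.0805). Ighd, the heavy chain of IgD on naive B cells, had 210, 261, 207 and 266 counts (log2 fold change 0.07). Igkc, the kappa light chain, had a log2 fold change of 1.63 just outside the threshold (edgeR adjusted p = 0.0504), and its value was 1.00 without WT 1 (edgeR adjusted p = 0.1) and 2.79 without WT 2 (0.0069). It passed without either ICAM-1 KO-labelled library in turn and did not with DESeq2 (0.207).

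The remaining genes were Ralgps2 and Swap70. Ralgps2, an exchange factor for Ral, lay at 24.6 and 25.2 against 31.3 and 24.6 (log2 fold change 0.19). Swap70, which acts on the cytoskeleton of B cells and mast cells, lay at 99.0 and 89.6 against 104.7 and 101.5 (log2 fold change 0.16). Neither passed the test, and the groups of Ralgps2 overlapped.

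By role, the 17 genes that are largely confined to B cells gave 7 that rose of 13 tested, 4 of them by at least 2-fold, with a median log2 fold change of 0.75. All 4 plasma cell genes were tested, 3 rose and 2 of these by at least 2-fold, with a median of 1.49 that was 1.00 without WT 1 and 2.58 without WT 2. Of the 17 genes shared with other blood or lung cells, 16 were tested, 7 rose and 6 of these by at least 2-fold, with a median of 0.82. Over all genes tested, 8.8% rose and 4.94% rose at least 2-fold, with a median of 0.01. The same shares apply to the counts of the other lists given here. The summed normalized count of the first list was 224 and 243 in WT and 453 and 395 in the ICAM-1 KO-labelled libraries. For the plasma cell list it was 101 and 296 against 387 and 583, and for the shared list 674 and 618 against 813 and 838.

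Other genes of the same pathways, listed apart from the members, were mixed. Of 24 other B cell receptor signalling genes tested, 9 rose and 0 fell, with a median log2 fold change of 0.31. Fcgr2b, an inhibitory Fc receptor, and Malt1, a protease of NF-kB signalling, were among those that rose at least 2-fold. Both ICAM-1 KO-labelled libraries lay above both WT libraries in 15 of the 24 (28.3% of all genes tested). They lay below in 2 (31.3% of all genes tested), Cd81 (log2 fold change -0.20) and Vav1 (-0.19), which did not pass the test, and 7 overlapped. Ptprc, whose B220 form was in the lineage mix, rose by a smaller amount (log2 fold change 0.39, edgeR adjusted p = 0.0138), and this count covers all forms of CD45. The call of Ptprc was lost without WT 1 (edgeR adjusted p = 0.0763) and without WT 2 (0.08).

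Early B cell genes gave little, in that 5 of 11 were tested and Ikzf3 alone rose (log2 fold change 0.42, edgeR adjusted p = 0.0171, lost without WT 1 at 0.058 and without WT 2 at 0.0812). Rag1 and Igll1 were not listed, and Rag2 had counts in 1 library only, ICAM-1 KO 1, and was not tested. Nor were Erg (73 and 11 counts in WT against 92 and 77), Dntt (8 and 12 against 3 and 0) and Vpreb1 (2 and 11 against 7 and 1). For Dntt both ICAM-1 KO-labelled libraries lay below both WT libraries. Of 13 other mature B cell genes tested, 4 rose, with a median log2 fold change of 0.54. The most abundant of these were Ets1 and Cd83, and Ets1 did not pass without WT 1 (edgeR adjusted p = 0.163), WT 2 (0.0969) or ICAM-1 KO 1 (0.141). Mef2c and Napsa rose at least 2-fold. Fcmr, the receptor for IgM, lay at 13.8 and 8.71 in WT and 17.5 and 16.3 in the others and did not pass (log2 fold change 0.62, edgeR adjusted p = 0.145).

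Of 11 other plasma cell genes tested, 7 rose, with a median log2 fold change of 0.69. Slamf7 and Tent5c rose at least 2-fold. Xbp1, the factor of the secretory programme that ILC2s express too, rose from 160.5 and 201 to 278 and 277 (log2 fold change 0.64, edgeR adjusted p = 0.00873). Irf4, needed for plasma cells and used by ILC2s, was the 1 gene of this list below 0, at a log2 fold change of -0.59 without passing the test (edgeR adjusted p = 0.0923).

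Most tested markers of T cells, myeloid cells, endothelium and alveolar epithelium moved with the B lineage genes. Of the T cell markers tested, 5 of 8 rose and 0 fell, and Trac and Lck were the most abundant of those that rose. Cd3g (log2 fold change -0.33), Cd8a (-0.04) and Cd3e (0.17) did not pass the test. For Cd3g both ICAM-1 KO-labelled libraries lay below both WT libraries (113.5 and 127.2 in WT against 81.1 and 107). The summed normalized count of the T cell markers was 357 and 461 in WT and 693 and 848 in the ICAM-1 KO-labelled libraries. Of the macrophage and monocyte markers 5 of 7 rose (458 to 480 against 775 to 989), and of the dendritic cell markers 3 of 4 rose (34.2 to 35.2 against 61.2 to 72.5). Endothelial markers rose in 6 of 6 (115 to 124 against 285 to 296), and alveolar epithelial markers in 3 of 4 (35.2 to 68.1 against 387 to 795). The macrophage marker Marco, the dendritic cell marker Cd209a and the alveolar marker Sftpb are among those that rose. With WT means of 0.977, 2.07 and 0.676, they passed the limit on low counts only with the help of the ICAM-1 KO-labelled libraries. Sftpc and Sftpa1 made up most of the alveolar sum. Sftpc differed widely between the WT libraries, at 24.2 and 0.57, against 253 and 537 in the ICAM-1 KO-labelled libraries. Of 3 red cell markers, 1 was tested and did not pass. The only markers of the first 5 lists at 0 in a library were alveolar ones, Cldn18 in WT 1 and Sftpb and Nkx2-1 in WT 2. Their part in the result was not tested. Of the genes that rose, the 7 on the shared list (Blnk, Spib, Cd24a, H2-Ob, Cd55, Siglecg and Syk) and Sdc1 are also made by other blood or lung cells.

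**Figure D4:**
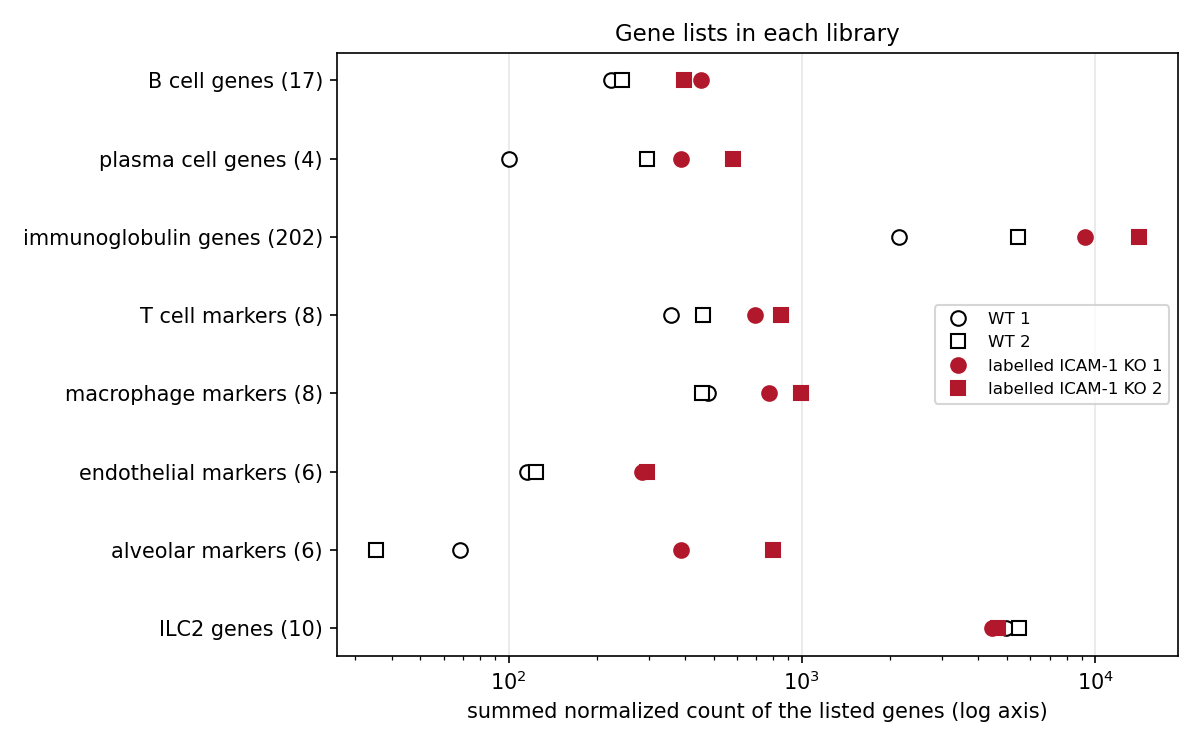
Summed normalized count (log axis) of each gene list in the 4 libraries, with the number of genes in brackets, open symbols for WT and filled symbols for the ICAM-1 KO-labelled libraries. Filled symbols lie to the right of open ones for the B cell, plasma cell, immunoglobulin, T cell, macrophage, endothelial and alveolar lists, and to the left for the ILC2 genes, 4446 and 4656 against 4953 and 5488.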

How the data were processed

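Activated lung ILC2s of 2 WT and 2 ICAM-1 KO pools, each of 4 mice, were analysed, with groups taken from the sample labels. The B cell and plasma cell genes and all other lists were chosen with earlier results of these data known. The authors made cDNA with a SMARTer low-input kit, sequenced it on a NextSeq 500, aligned the reads to mm10 by STAR, with the GENCODE M20 annotation, and deposited expected counts per gene estimated in Partek, for 22558 genes. The paper gives STAR 2.6.1d, and the submitters' processing notes list STAR 3.5.3 and CASAVA 1.8.2. A second deposited table gives a signal that the authors scaled by the upper quartile for 18324 genes, and its values equal the count plus 1 multiplied by a factor for each library (largest relative deviation 6.4e-06). This is called the normalized count.

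Expected counts were rounded and tested in edgeR 4.0.16 (glmQLFit with legacy set to FALSE, glmQLFTest, R 4.3.3), scaled by the upper quartile and without covariates. The fit covered the 11711 genes whose normalized counts had a mean of 1 or more and a sum of 10 or more, and calls were made at a Benjamini-Hochberg adjusted p under 0.05, with and without a 2-fold change. The paper's own differential test was not run. Standard errors were derived from the F statistic. The code was tested on simulated data. Depth was 24796148 to 28782471 counts per library. Gene coordinates were read from the deposited tables, less 1 base at the end, and equal GENCODE M21 for 35 of the 37 genes found. Exon lengths come from GENCODE M21, and promoters from RefSeq on GRCm38.p6. The reads carried no molecular identifiers, and 9 of the genes share exon bases with another gene.

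The genes named are all members found, Icam1, Fcmr, Ptprc, Ighm, Ighd and Igkc, the most abundant called genes of each other list in each direction, and genes that a count of 5 or fewer singles out. A further gene of this rule is not reported here. Irf4, Xbp1, Rag1, Rag2, Igll1, Erg, Dntt, Vpreb1, Cd81, Vav1, Marco and Cd209a are given with their lists. All of these but Xbp1 were chosen after their values were seen. Alternatives were TMM factors, edgeR in its older form, no limit on low counts, a minimum of 10 counts in every library, filterByExpr, the replicate number as a block, DESeq2 1.42.0, limma 3.58.1 on log2 of the normalized count plus a pseudocount of 1, and leaving out each library.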

Additional observations from a re-analysis of the deposited data

How the results depend on the processing

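No gene of the 33 was called lower under any alternative. Without a limit on low counts, 22158 genes were tested, 535 of them were called against 1612 in the reported fit, and 3 members were called, all by at least 2-fold. Limma gave 7 members at 2-fold and a median log2 fold change of 0.77, with a pseudocount that shrinks low genes. Leaving out a library gave 10 to 16 members called, 6 to 12 of them at 2-fold, and medians of 0.69 to 0.88, each fit taking the lone library to vary like the other group. The lowest counts of 10 and 6 came without WT 1, and the median was 0.76 without ICAM-1 KO 1. Calls lost were 7 without WT 1 (Ms4a1, Spib, Tnfrsf13b, H2-Ob, Sdc1, Derl3, Siglecg), 7 without WT 2 (Cd79a, Blk, Bank1, Spib, Tnfrsf13b, H2-Ob, Siglecg), 3 without ICAM-1 KO 1 (Cd79a, Spib, H2-Ob) and 1 without ICAM-1 KO 2 (Tnfrsf13b). DESeq2 lost Pou2af1 (adjusted p = 0.237) and Mzb1 (0.11) and gained Btk and Tnfrsf13c, the older form of edgeR lost Pou2af1 and Derl3, and filterByExpr lost Pou2af1, Spib and H2-Ob. TMM factors and the minimum of 10 counts in every library changed no member's call. Of the 17 called genes, 12 held in every alternative but the one with no limit on low counts, leaving out a library aside. Log2 fold changes near 0 changed sign for Cd72 (-0.04 with no limit on low counts, -0.02 with filterByExpr and with limma, 0.00 with DESeq2). With 1 library left out they ran from -0.17 to 0.17 for Cd72, from -0.30 to 0.62 for Bach2, from -0.07 to 0.21 for Ighd, from -0.03 to 0.72 for Fcrla and from -0.01 to 0.23 for Cd37. The cause was not tested. Same-numbered libraries hold different mice, and the labels do not say whether they shared a processing step. The correlation of same-numbered deviations over all genes tested was -0.029, which cannot settle this. With the number as a block 18 members were called, Jchain added (log2 fold change 1.39, edgeR adjusted p = 0.000957), and 1715 genes in all. Groups of 2 libraries limit every call, and Pax5, Fcrl1, Cd40 and the 4 untested genes were too low for firm statements.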
